A study of Mus musculus with 6 samples.

Results

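Complement is described here through 9 genes: the C1q chains C1qa, C1qb and C1qc, the central component C3, properdin (Cfp), the anaphylatoxin receptors C3ar1, C5ar1 and C5ar2, and the macrophage complement receptor Vsig4. They were chosen by name for their role in complement, though with earlier results of these data known. Each has 1 row among the 26110 genes of the RNA-seq table. Libraries were made from MHCII hi cells of the small bowel muscularis externa (ME), the muscle layer of the gut wall, which had been sorted into CX3CR1- and CX3CR1+ cells, with 3 libraries of each. All cells came from naive, untreated female CX3CR1GFP/+ mice on a C57BL/6 background, in which GFP takes the place of 1 Cx3cr1 allele and reports its promoter, so both populations lack 1 functional copy. The age of the mice is not given in the sources used here. Tissue from 6 mice per group was combined and digested with collagenase before sorting, and whether each library had a pool of its own is not stated, so p-values measure the spread between libraries, which may be technical.

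Complement is a cascade of plasma and locally made proteins that tags particles for uptake and calls in leukocytes. The classical pathway starts when C1q, a protein assembled from A, B and C chains, binds antibody or dying cells. All pathways converge on the cleavage of C3, which leaves C3b on the target and releases the peptide C3a, and C5 is cleaved after it into C5b and C5a. Properdin stabilizes the alternative pathway convertase that cleaves C3. C3a acts through C3ar1, and C5a through C5ar1 and C5ar2, of which C5ar2 does not couple to G proteins. Vsig4, also called CRIg, binds C3b and iC3b on some tissue macrophages. Macrophages are a known source of C1q, whereas most plasma C3 comes from the liver.

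The 9 genes did not all move in the same direction. All 3 C1q chains and all 3 anaphylatoxin receptors were lower in CX3CR1- cells, whereas C3 and properdin were higher there, and Vsig4 was not measurable in either population. Of the 8 genes that could be tested, 6 were called lower in CX3CR1- and 2 higher. limma was fitted across the 17812 genes whose mean normalized value reached 10. Genes were called where the log2 fold change reached 1 in either direction and the adjusted p did not exceed 0.05. By that rule 8.15% of the tested genes were called lower in CX3CR1- and 12.2% higher. The populations did not overlap in any of the 8 genes, which held for 40.0% of all tested genes. The median log2 fold change was -2.64 over the 8 genes and 0.00 over all tested genes. In bulk libraries, fewer cells of a type and less RNA per cell cannot be told apart, and this holds for each difference that follows.

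**Figure D1:**
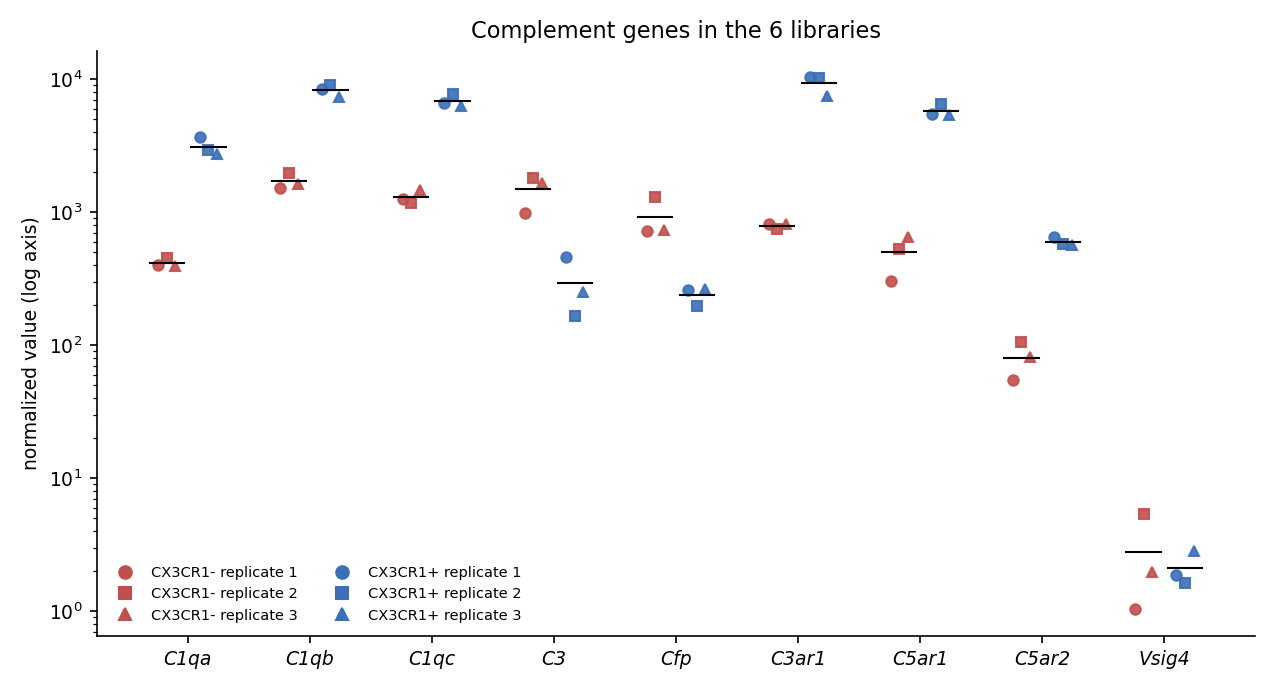
Normalized value (vertical log axis) of the 9 genes in each library, red for CX3CR1- and blue for CX3CR1+, with the symbol giving the replicate and the black bar the mean of 3 libraries. The colors are apart for 8 genes, with blue on top for C1q and the receptors and red on top for C3 and Cfp, whereas all Vsig4 values lie between 1.04 and 5.36.

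The libraries held approximately 5346381 to 17616761 reads, estimated from the smallest step between values, and 3 reads were worth 1.39 to 5.36 normalized units. Cx3cr1, the gene of the sort, had 18.9 to 28.5 in CX3CR1- and 346.5 to 380.4 in CX3CR1+ libraries (log2 fold change -3.92, SE 0.27, limma adjusted p = 7.72e-06). The sample labels call both populations dendritic cells, whereas the authors take both for resident macrophages. By flow cytometry they found most CX3CR1- cells positive for CD11b and very few for CD11c or CD103. They also report IBA-1 staining of these cells, and higher CD103 and Flt3 transcripts in them than in CX3CR1+ cells. They call the admixture of dendritic cells very low and probably negligible. The values that follow are RNA. All 8 dendritic cell markers tested were higher in CX3CR1-, with summed values of 3563.3 to 4046.7 against 210.8 to 280.9. Of 9 macrophage markers, 8 were lower in CX3CR1- and Lyve1 was higher, and their sum was 8849.0 to 9827.2 against 39134.9 to 41458.7. Mitochondrially encoded genes took 47.5 to 54.9% of the summed values in CX3CR1- and 18.1 to 21.2% in CX3CR1+ libraries.

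The promoters of genes from both directions are shown first, because the C1q genes and the pair of C3 and Cfp moved apart. The windows are from RefSeq (GRCm38.p6) and run from 250 bases before the transcript start to 50 bases after it. Capitals mark every match, on either strand, to GAGGAA, the box read by the myeloid factor PU.1, or to TTNNGNAA, a loose core of the sites that C/EBP factors bind. The motifs were partly chosen after the sequences had been seen.
C1qb promoter, chr4:136886151-136886450, minus strand: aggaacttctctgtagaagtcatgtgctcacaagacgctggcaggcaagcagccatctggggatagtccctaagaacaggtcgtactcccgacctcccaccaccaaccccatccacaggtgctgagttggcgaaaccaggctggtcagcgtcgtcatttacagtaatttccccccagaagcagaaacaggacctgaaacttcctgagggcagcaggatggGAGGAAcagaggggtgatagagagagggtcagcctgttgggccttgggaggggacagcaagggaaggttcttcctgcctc
C1qc promoter, chr4:136892865-136893164, minus strand: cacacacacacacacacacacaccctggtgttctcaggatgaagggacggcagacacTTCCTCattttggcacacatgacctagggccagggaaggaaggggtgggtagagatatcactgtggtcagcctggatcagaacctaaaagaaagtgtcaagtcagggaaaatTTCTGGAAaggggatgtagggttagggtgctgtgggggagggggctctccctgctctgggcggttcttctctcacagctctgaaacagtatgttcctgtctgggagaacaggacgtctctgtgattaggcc
C3 promoter, chr17:57228087-57228386, minus strand: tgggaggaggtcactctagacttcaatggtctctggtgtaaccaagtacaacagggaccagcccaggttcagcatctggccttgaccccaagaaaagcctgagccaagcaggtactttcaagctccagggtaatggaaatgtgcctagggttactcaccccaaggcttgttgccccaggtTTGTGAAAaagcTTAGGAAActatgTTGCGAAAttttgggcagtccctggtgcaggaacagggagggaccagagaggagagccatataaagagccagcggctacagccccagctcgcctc
Cfp promoter, chrX:20931506-20931805, minus strand: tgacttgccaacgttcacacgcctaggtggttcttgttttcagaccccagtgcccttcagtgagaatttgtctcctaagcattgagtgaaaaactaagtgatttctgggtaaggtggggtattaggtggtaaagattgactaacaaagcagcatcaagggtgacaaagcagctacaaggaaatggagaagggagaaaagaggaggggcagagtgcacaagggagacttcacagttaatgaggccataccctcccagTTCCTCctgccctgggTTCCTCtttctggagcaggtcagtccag

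GAGGAA occurred in 28.3% of the 32851 RefSeq windows and TTNNGNAA in 40.7%, so a single match is common. The C1qb window holds 1 GAGGAA, 30 bases upstream of the start. The neighboring C1qc window holds 1 on the opposite strand, 193 bases upstream, and a C/EBP core 81 bases upstream. In the C3 window, 3 C/EBP cores begin 70, 58 and 45 bases upstream. Of all windows, 3.6% held 3 or more, a cutoff equal to the count in the C3 window, so this share is not a test. The innermost of the C3 cores matches on both strands. Properdin has a pair of GAGGAA boxes on the opposite strand, 6 and 22 bases downstream of its start. Of the 8 genes with a window, 5 held GAGGAA in at least 1 window, namely C1qb, C1qc, C5ar2, Cfp and Vsig4. TTNNGNAA was also in 5, namely C1qc, C3, C5ar1, C5ar2 and Vsig4. Each motif thus occurred in genes called higher and in genes called lower. C5ar2 has 2 windows, in 1 of which the GAGGAA box lies inside a TTNNGNAA match. The C3ar1 window held neither. A match describes these letters only. C1qa is not in the promoter table.

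C1q is the recognition unit of the classical pathway, and its genes lie next to each other on the minus strand of chromosome 4 (GRCm38), with C1qb at 136880129-136886187, C1qc at 136889804-136893065 and C1qa at 136895917-136898803. C1qa, which encodes the A chain, had normalized values of 402.8, 454.2 and 394.9 in CX3CR1- replicates 1 to 3 and of 3656.2, 2951.3 and 2711.1 in CX3CR1+ replicates 1 to 3, an order that is kept wherever 3 values are given. The highest CX3CR1- library thus stayed below the lowest CX3CR1+ library. The means were 417.3 ± 32.2 (SD, n = 3) and 3106.2 ± 491.2 (SD, n = 3), a log2 fold change of -2.88 (SE 0.17, limma adjusted p = 4.38e-06).

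The B chain gene C1qb was the most abundant of the 3, at 1509.0, 1968.8 and 1625.5 in CX3CR1- and 8360.0, 9060.6 and 7376.8 in CX3CR1+ libraries. Replicate 2 was the highest library of each population, and the populations were far apart. The log2 fold change was -2.28 (SE 0.15, limma adjusted p = 7.19e-06), a ratio of the means of 4.86.

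The C chain gene C1qc had 1254.1, 1178.1 and 1455.9 in CX3CR1- and 6608.4, 7736.7 and 6251.8 in CX3CR1+ libraries. Replicate 3 was the highest CX3CR1- library and the lowest CX3CR1+ library. Its log2 fold change was -2.40 (SE 0.15, limma adjusted p = 5.62e-06), a ratio of the means of 5.3.

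The chains were compared with each other per length, as the normalized value per kilobase of the principal annotated transcript. The order was C1qb, then C1qc, then C1qa in each of the 6 libraries. The mean levels per kilobase were 1563.5, 1077.3 and 401.3 in CX3CR1- and 7597.2, 5707.1 and 2986.7 in CX3CR1+ cells. C1qb made up 51.3 ± 4.21% of the summed C1q level per length in CX3CR1- against 46.6 ± 0.656% in CX3CR1+ cells (SD, n = 3 each). C1qc made up 35.5 ± 4.62% and 35.0 ± 1.89% (SD, n = 3 each). The share of C1qa was 13.8, 13.5 and 12.3% in CX3CR1- and 21.1, 16.1 and 17.9% in CX3CR1+ libraries, so these shares did not overlap.

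A ratio within a library does not depend on how the libraries were scaled to each other. For C1qa over C1qb the log2 ratio of the normalized values was -2.02 ± 0.11 in CX3CR1- against -1.42 ± 0.21 in CX3CR1+ (SD, n = 3 each), a difference of -0.60. The exact permutation test gave p = 0.1, the smallest value that 3 libraries against 3 allow, and 0.2 after adjustment over the 8 ratios planned between members. For C1qb over C1qc the difference was 0.12 (exact permutation p = 0.8), less than the SD of 0.31 among CX3CR1- libraries. C1qa over C1qc differed by -0.48, and the libraries overlapped (exact permutation p = 0.2).

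**Figure D2:**
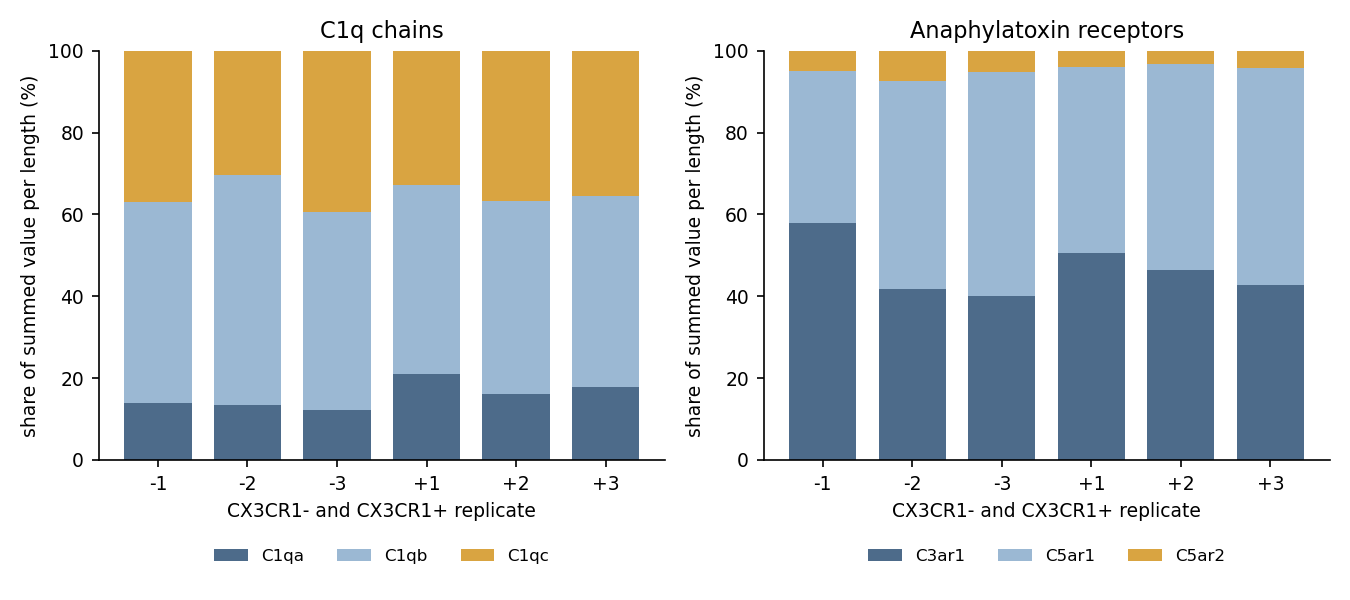
Share (%) of each C1q chain in the summed C1q value per length (left) and of each receptor in the summed anaphylatoxin receptor value per length (right), one bar per library with CX3CR1- at left and CX3CR1+ at right. C1qb is the largest C1q share in all 6 libraries, and the C1qa share is 12.3 to 13.8% in CX3CR1- against 16.1 to 21.1% in CX3CR1+.

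Of the receptors for the cleavage peptides, C3ar1 and C5ar1 had larger fold changes than the C1q chains. C3ar1, the C3a receptor at 122847138-122856161 on chromosome 6, had 807.7, 743.9 and 811.7 in CX3CR1- and 10291.9, 10156.5 and 7395.2 in CX3CR1+ libraries. Replicate 3 was the lowest CX3CR1+ library and still lay far above every CX3CR1- library. The log2 fold change was -3.54 (SE 0.16, limma adjusted p = 1.45e-06).

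C5ar1 and C5ar2 lie side by side on the minus strand of chromosome 7, at 16246743-16259540 and 16234585-16244154. C5ar1, the signaling C5a receptor, had 305.5, 532.4 and 654.8 in CX3CR1- and 5455.7, 6500.7 and 5404.7 in CX3CR1+ libraries. The CX3CR1- libraries were spread wider for this gene than for C3ar1, with replicate 1 the lowest, without reaching the other population. The log2 fold change was -3.60 (SE 0.25, limma adjusted p = 9.27e-06), and the means differed 11.6-fold.

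C5ar2, the C5a receptor that signals without G proteins, was the least abundant of the receptors, at 55.2, 105.0 and 81.6 in CX3CR1- and 649.8, 573.3 and 562.1 in CX3CR1+ libraries. Replicate 1 was the lowest CX3CR1- library and the highest CX3CR1+ library. Its log2 fold change was -2.91 (SE 0.26, limma adjusted p = 3.71e-05). An exon of C5ar2 overlaps the small nuclear RNA gene Gm26473 on the same strand, and 6.11% of its 31-base words also occur there or in other transcripts. For the other 8 genes that share was under 1%.

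Among the receptors, C3ar1 took 46.6 ± 9.82% of the summed level per length in CX3CR1- against 46.6 ± 3.86% in CX3CR1+ cells (SD, n = 3 each). C5ar1 took 47.6 ± 9.27% and 49.6 ± 3.87% (SD, n = 3 each). C5ar2 took 4.97, 7.42 and 5.06% in CX3CR1- and 4.01, 3.29 and 4.09% in CX3CR1+ libraries. Which of C3ar1 and C5ar1 was higher per length changed between libraries of both populations. The log2 ratio of C5ar1 to C3ar1 differed by -0.06 between the populations, below the SD of 0.59 among CX3CR1- libraries (exact permutation p = 0.9). For C5ar1 over C5ar2 the ratio was 2.59 ± 0.35 in CX3CR1- against 3.28 ± 0.22 in CX3CR1+ (SD, n = 3 each, difference -0.69, exact permutation p = 0.1, adjusted 0.2). Quantile normalization, which reshapes each library, reduced this difference to -0.33.

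C1q and the receptors were set against each other and against Csf1r, the receptor for the macrophage growth factor CSF1, in ratios chosen after the data had been seen. The log2 ratio of C3ar1 to C1qb was -0.90, -1.40 and -1.0 in CX3CR1- and 0.30, 0.16 and 0.00 in CX3CR1+ libraries. C3ar1 was lower relative to C1qb in each CX3CR1- library, by -1.26 in the mean (exact permutation p = 0.1). The size depended on the chain, with a difference of -1.14 relative to C1qc and of -0.66 relative to C1qa, both without overlap (exact permutation p = 0.1 each). Relative to Csf1r, which had a log2 fold change of -2.42, C1qb differed by 0.13 (exact permutation p = 0.2), whereas C3ar1 differed by -1.13 and C5ar1 by -1.19 (exact permutation p = 0.1 each). No p for these ratios was adjusted.

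**Figure D3:**
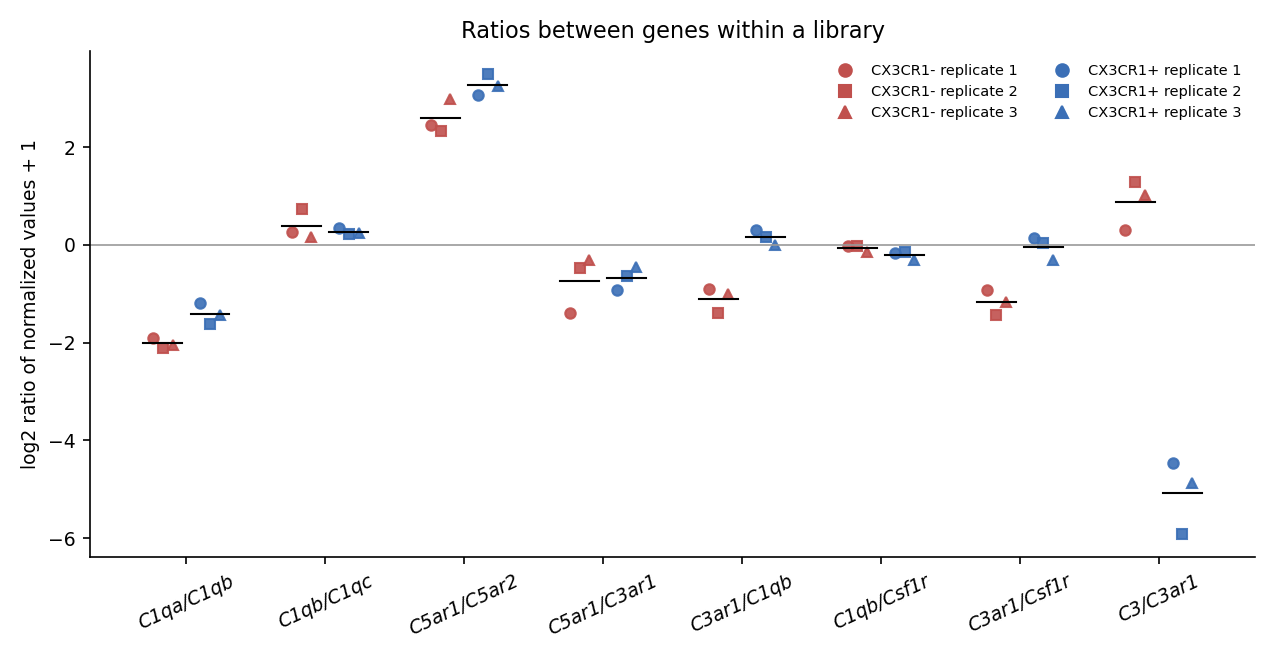
Log2 ratio of the normalized values (+ 1) of gene pairs within a library (vertical axis), red for CX3CR1- and blue for CX3CR1+, with bars for the mean of 3 libraries. The colors overlap for C1qb/C1qc, C5ar1/C3ar1 and C1qb/Csf1r and are apart for C3ar1/C1qb, C3ar1/Csf1r and C3/C3ar1.

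C3 is the component on which every pathway converges, and its gene lies at 57203970-57228136 on the minus strand of chromosome 17. It had normalized values of 991.4, 1802.6 and 1641.6 in CX3CR1- and 462.9, 166.6 and 252.3 in CX3CR1+ libraries. Both populations varied for C3, with replicate 1 the closest library of each to the other population, and they did not overlap. The means were 1478.6 ± 429.5 (SD, n = 3) and 293.9 ± 152.5 (SD, n = 3). The log2 fold change was 2.41 (SE 0.36, limma adjusted p = 0.000794).

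Properdin (Cfp), on chromosome X at 20925454-20931555, had 725.3, 1301.4 and 730.9 in CX3CR1- and 259.7, 195.6 and 262.2 in CX3CR1+ libraries. Replicate 2 was the highest CX3CR1- library and the lowest CX3CR1+ library, as it was for C3. The log2 fold change was 1.89 (SE 0.26, limma adjusted p = 0.000502), a ratio of the means of 3.84. Per length, Cfp had a mean of 561.9 in CX3CR1- against 146.2 in CX3CR1+, and C3 had 287.9 against 57.2. The log2 ratio of Cfp to C3 differed by -0.51 between the populations, and the libraries overlapped (exact permutation p = 0.3).

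C3 and the receptor for its peptide C3a thus ran in opposite directions. The log2 ratio of C3 to C3ar1 was 0.30, 1.28 and 1.02 in CX3CR1- and -4.47, -5.92 and -4.87 in CX3CR1+ libraries. It was above 0 in each CX3CR1- library and below 0 in each CX3CR1+ library, a difference of 5.95 (exact permutation p = 0.1, adjusted 0.2). Hc, which encodes C5, the source of C5a, was looked up after its values had been seen. It had 7.04, 3.72 and 2.49 in CX3CR1- and 8.33, 0.0 and 0.0 in CX3CR1+ libraries and was below the mean of 10 needed for the test.

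Vsig4, on chromosome X at 96247203-96293438, had normalized values of 1.04, 5.36 and 1.99 in CX3CR1- and 1.87, 1.64 and 2.83 in CX3CR1+ libraries. These values correspond to 1, 3 and 2 reads and to 4, 2 and 2 reads. With so few reads no difference was detectable, no fold is given, and the gene was not tested. The log2 ratio of Vsig4 to C1qb, one of the 8 ratios, rests on these few reads and is not read as a difference.

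The differences in mitochondrial share were set beside these genes by expressing them as a share of the summed value of all genes that are not mitochondrially encoded. The C1q chains then made up 0.0564, 0.0589 and 0.0648% in CX3CR1- and 0.290, 0.299 and 0.263% in CX3CR1+ libraries. The receptors made up 0.0241 ± 0.00423% (SD, n = 3) and 0.244 ± 0.0247% (SD, n = 3). C3 and Cfp together made up 0.0306, 0.0508 and 0.0442% in CX3CR1- and 0.0113, 0.00548 and 0.00829% in CX3CR1+ libraries. None of the 3 sums overlapped between the populations on this scale.

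Other complement genes were taken from a list of 53 by role, of which 40 were in the table and 29 were tested. Of these, 9 were called higher in CX3CR1-, 2 lower and 18 not called, with a median log2 fold change of 0.26. The share called in each direction over all genes was 12.2% higher and 8.15% lower. The proteases and lectins that act with or beside C1q had 2 of 7 called, both higher. Fcna, a ficolin that starts the lectin pathway, had 46.0, 93.7 and 53.3 in CX3CR1- libraries and lay under 3 reads in every CX3CR1+ library, so it was at least 23.8-fold higher against the mean value of 3 reads. C1s1, a protease of the C1 complex, had 96.9, 86.1 and 213.8 against 11.2, 10.9 and 9.43 (log2 fold change 3.41, SE 0.42, limma adjusted p = 0.000252). C1s1 shares 47.6% of its 31-base words with other genes, mostly C1s2, so reads may be split between them. C4b, the most abundant gene of the group, encodes C4 and had a log2 fold change of -0.17 (SE 0.31, limma adjusted p = 0.735) with overlapping populations. It shares 48.3% of its words, mostly with C4a.

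In the alternative and terminal pathways, 1 of 3 tested genes was called. C7, a part of the membrane attack complex, had 98.1, 114.4 and 297.2 in CX3CR1- and 0.463, 4.92 and 4.25 in CX3CR1+ libraries (limma adjusted p = 0.000218). Cfb, the protease of the alternative convertase that properdin stabilizes, had a log2 fold change of 1.0 (SE 0.47, limma adjusted p = 0.158) with overlapping populations. Cfb shares 75.5% of its words with other genes, mostly Gm20547, so its reads may be split. Cfb was named after its values had been seen.

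Regulators of complement were called higher in 3 of 10 cases. Serping1, the C1 inhibitor that acts on C1r and C1s, had 865.7, 673.8 and 1516.1 in CX3CR1- and 27.6, 29.3 and 23.9 in CX3CR1+ libraries (log2 fold change 5.11, SE 0.31, limma adjusted p = 4.7e-06). Cd55, which speeds the decay of the convertases on the cell surface, had a mean of 277.4 ± 30.8 against 13.7 ± 4.84 (SD, n = 3 each, log2 fold change 4.29). Clu, clusterin, had 97.6, 23.0 and 26.5 against 8.55, 5.28 and 2.97 (limma adjusted p = 0.0139), with replicate 1 far above the other CX3CR1- libraries.

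Of 9 tested receptors and C1q-binding proteins, 4 were called. Cd93, first described as a C1q receptor on phagocytes, moved with C1q, at 556.2, 418.4 and 706.0 in CX3CR1- and 4127.0, 4791.1 and 4524.1 in CX3CR1+ libraries (log2 fold change -3.03, SE 0.20, limma adjusted p = 6.59e-06). Itgax, the alpha chain of complement receptor 4 and a dendritic cell integrin, was higher, with a mean of 645.3 ± 101.6 against 152.4 ± 4.29 (SD, n = 3 each). Cr2, a complement receptor of B cells and follicular dendritic cells, had 119.3, 131.0 and 62.2 against 23.4, 15.3 and 4.07 (log2 fold change 2.99, limma adjusted p = 0.00412). Cd209b, a C-type lectin that binds C1q, had 60.7, 76.1 and 55.0 against 2.78, 0.0 and 0.0. The most abundant gene of the group, Itgam, encodes the alpha chain of complement receptor 3 and had a log2 fold change of -0.15 (SE 0.22, limma adjusted p = 0.668). The table has more than 1 row of that name, and the row with the higher mean was used. Itgam shares 68.3% of its 31-base words with other genes, mostly Gm49368, so its reads may be split.

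**Figure D4:**
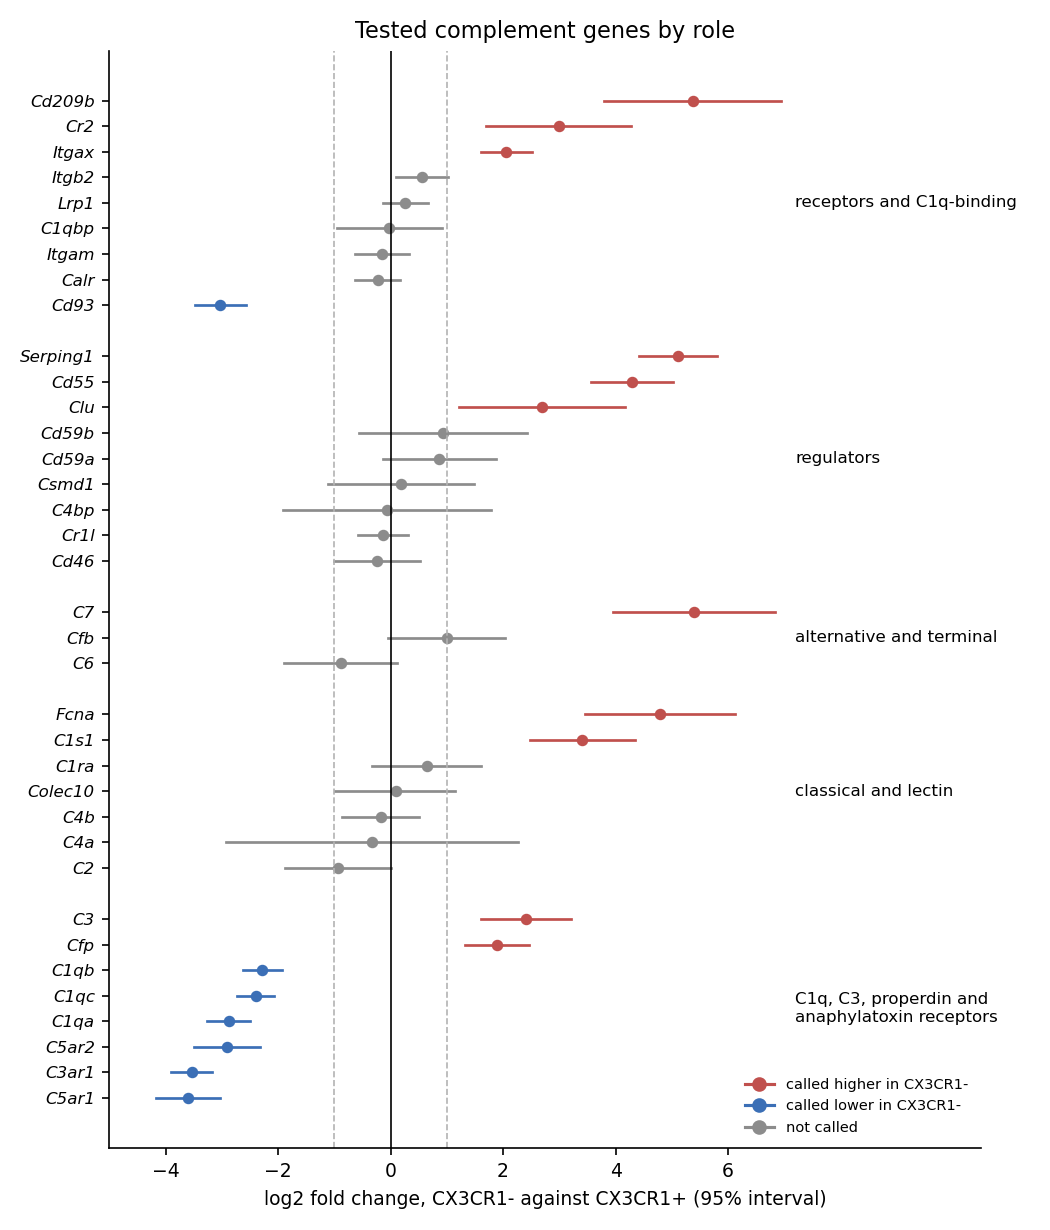
Log2 fold change (horizontal axis, positive when higher in CX3CR1-) with its 95% interval for tested complement genes, grouped by role; red and blue mark genes called higher and lower, gray those not called, and dashed lines the fold threshold of 1. The 6 blue points at the bottom are the C1q chains and the anaphylatoxin receptors, and Cd93 is the other blue point shown.

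Markers of other cell types moved with the sort. All 7 fibroblast markers were higher in CX3CR1-, with summed values of 9409.0, 5257.7 and 16011.3 against 208.8 to 363.6. All 7 epithelial markers were higher, at 14825.2 to 24301.4 against 23.1 to 49.5. All 6 B and plasma cell markers were higher, at 1651.1, 3781.9 and 1835.4 against 22.9 to 60.9, and the plasma cell gene Mzb1 was at 0 in every CX3CR1+ library. Of 5 tested monocyte markers, 3 were higher, and the list had sums of 3528.3, 4659.2 and 2477.4 against 2349.1 to 2417.1. Ly6c2 was not called. F13a1, a large part of these sums, went the other way without overlap but short of the fold threshold (log2 fold change -0.68, limma adjusted p = 0.011). Endothelial markers were higher in 3 of 5 cases, glial and neuronal markers in 3 of 6, and mesothelial markers in 1 of 3. Of the 7 listed mast cell and eosinophil markers only 2, Kit and Siglecf, could be tested, and both were higher. Cpa3, Mcpt4, Tpsb2 and Epx had no row, so the list says little about these cells. None of the 6 smooth muscle markers, of the single tested T and NK cell marker or of the single tested neutrophil marker was called, and none had an unadjusted limma p under 0.05 (0 of 6, 0 of 1 and 0 of 1). The part of these cells in the values of C3, Cfp and the other complement genes was not tested.

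Within CX3CR1-, C3, Cfp and other complement genes were set beside the marker sums of the same libraries. C3 and Cfp were highest in replicate 2, where the fibroblast sum was lowest and the B cell, monocyte and dendritic cell sums were highest. The macrophage sums of replicates 2 and 3 were nearly equal, at 9827.2 and 9819.8. C1s1, C7, Serping1 and C4b were instead highest in replicate 3, where the fibroblast sum was highest. Their lowest library differed, with C7 (98.1) and C4b (380.0) lowest in replicate 1 and C1s1 and Serping1 in replicate 2. C3 was also higher in replicate 3 (1641.6) than in replicate 1 (991.4), as the fibroblast sum was. The log2 ratio of C3 to Dcn, a fibroblast gene, was -1.27, 0.19 and -1.33 in CX3CR1- and 1.77, 0.91 and 2.24 in CX3CR1+ libraries, and that of C3 to Serping1 was 0.20, 1.42 and 0.11 against 4.02, 2.47 and 3.35. Both ratios were chosen after the data had been seen, and both were without overlap (exact permutation p = 0.1 each). These are 3 libraries, the pattern is a description of them, and which cells made C3 and Cfp was not tested.

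**Figure D5:**
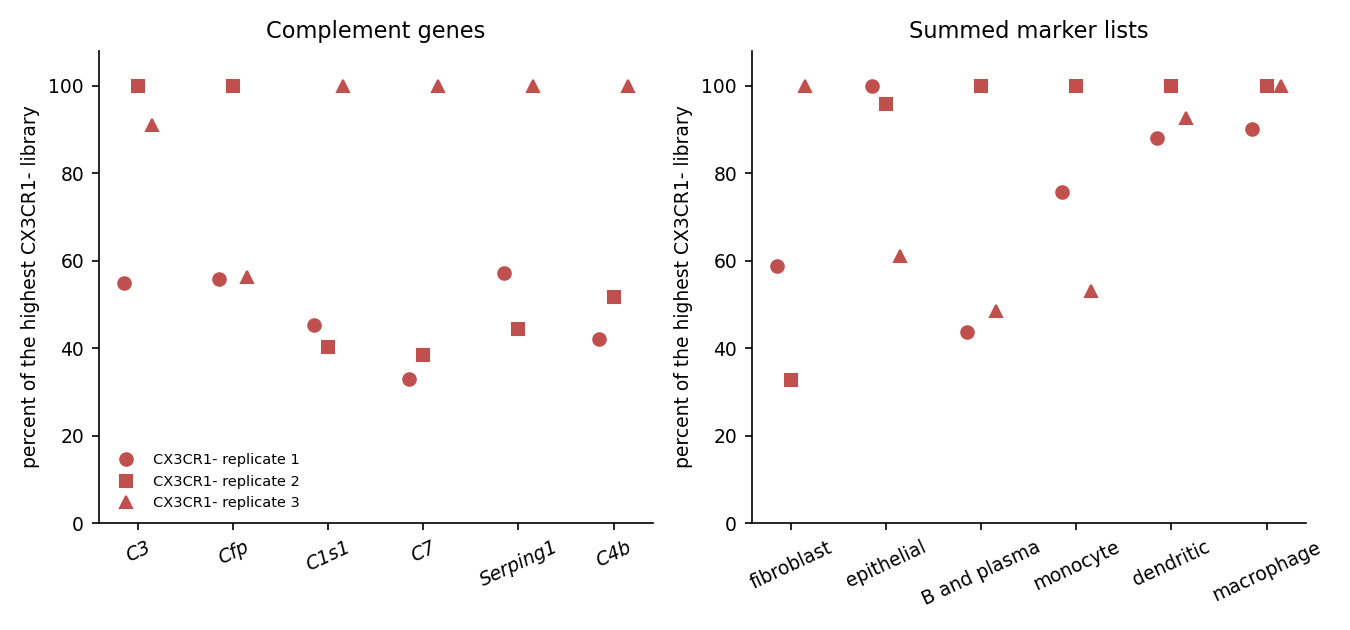
Normalized value of 6 complement genes (left) and summed value of 6 marker lists (right) in the 3 CX3CR1- libraries, each as a percentage of its highest library. Replicate 2 (square) is on top for C3, Cfp and the B and plasma cell list, whereas replicate 3 (triangle) is on top for C1s1, C7, Serping1, C4b and the fibroblast list.

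The genes whose profile over the 6 libraries was nearest to those of C1qa, C3 and Cfp were found by the root mean square difference of the centered log2 values. Nearest to C1qa were Tnf (0.169), which encodes the cytokine tumor necrosis factor, Itga6 (0.182), an integrin, and Adgre1 (0.186), which encodes a macrophage surface receptor. This measure depends strongly on the log2 fold change, which was -2.86 for Tnf, -2.85 for Itga6 and -3.14 for Adgre1 against -2.88 for C1qa. What else near genes share was not tested. C5ar2 ranked 12 among the tested genes by nearness to C1qa, C1qc 36, C1qb 42, C3ar1 71 and C5ar1 221. Nearest to C3 were Mus81 (0.225), Gm9530 (0.245) and Cttn (0.258), and Cfp ranked 83. Nearest to Cfp were Ebf1 (0.115), a B cell and stromal transcription factor gene, Gclm (0.16) and Gsta4 (0.181), enzymes of glutathione metabolism, and C3 ranked 419. By rank of the log2 fold change among the 17812 tested genes, counted from the lowest, C5ar1 was 66, C3ar1 75, C5ar2 167, C1qa 171, C1qc 316 and C1qb 377. C3 was 1356 and Cfp 1826 from the highest.

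Among the 24 nearest protein-coding genes on either side, 20 were tested, of which 3 were called higher (Syn1, Timp1 and Heph) and 2 lower (Tnfsf14 and Clec4a1). These counts lie near the shares over all tested genes, 12.2% higher and 8.15% lower, and nothing is read from them about the 9 genes. The closest neighbors of C3ar1 and Cfp were not called, with a log2 fold change of -0.60 for Foxj2, 1772 bases from C3ar1, and of -0.62 for Elk1, 1840 bases from Cfp. Of those called, Syn1, 4450 bases from Cfp, had 2.44, Timp1, also flanking Cfp, 2.07, and Clec4a1, flanking C3ar1, -2.23, each in the direction of its member. Tnfsf14, flanking C3, had -1.82, opposite to C3, and Heph flanks Vsig4, which was not tested. No tested neighbor of the C1q or C5a receptor genes was called by limma, and 1 of them, Ephb2 beside C1qb, had an unadjusted p under 0.05 (adjusted p = 0.106). These neighbors were named after their values had been seen.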

How the data were processed

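RNA was measured by RNA-seq (TruSeq libraries, which do not mark strand, single reads). The authors pseudoaligned the reads with Kallisto to mm10 with GENCODE transcripts, summed the estimated counts per gene with tximport and scaled the libraries with DESeq2, and the signal they deposited is normalized in this way. No count test was run, since only 42.6 to 44.7% of values above 0 were whole multiples (within 0.01) of a library's smallest step. That step gave the approximate reads. Samples were grouped by the population in their labels.

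limma 3.58.1 in R 4.3.3 (intensity trend, two-sided) was run on log2(value + 1) where a gene's mean reached 10 (17812 genes), with Benjamini-Hochberg adjustment over them. Fold changes on this scale understate low genes, and precision is the SD over 3 libraries. The fit was also run on simulated counts (17775 genes), with 1 spread setting for all genes. It recovered 81 genes changed 4-fold and 100 changed 8-fold, 181 of 198 in all, with 7 false calls. Real genes vary in spread and more of them differ, so these rates need not hold for the real data. Ratios within a library were tested by exact two-sided permutation (scipy 1.17.1). Positions, lengths and shared 31-base words come from GENCODE M21 (GRCm38). The genes and lists were chosen with earlier results of these data known. Named were the 9 genes, per role the called genes with the largest change (up to 3 a direction) and the most abundant one, defining markers, Cx3cr1 and the 3 nearest profiles of C1qa, C3 and Cfp. Alternatives were pseudocounts of 0.5 and 10, no filter, a mean of at least 50, 3 rescalings, no trend, library weights, a block of adjacent library numbers and leaving out each library. Listed complement genes without a row were not analysed here, and some results of the lists are not reported here.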

Additional observations from a re-analysis of the deposited data

How the results depend on the processing

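C1qa, C1qb, C1qc, C3ar1, C5ar1 and C5ar2 stayed lower and C3 and Cfp higher in CX3CR1-, past the threshold, under each alternative run. The log2 fold change ranged from 2.06 to 2.80 for C3 (largest limma adjusted p 0.0123), from 1.61 to 2.07 for Cfp (0.00873), from -3.83 to -3.26 for C5ar1 and from -2.39 to -1.79 for C1qb. The counts of called complement genes stayed within 1.5 times their values. Under quantile normalization the ratio of C5ar1 to C5ar2 moved to -0.33 and that of Vsig4 to C1qb to 1.15, and the cause was not tested. Over all genes, the median fold change (log2) shifted by -0.15 under quantile normalization and by 0.17 when rescaled to the non-mitochondrial total. No pairing of the libraries is stated, and the populations share no library numbers. Blocking on adjacent numbers (correlations of deviations 0.104, 0.038 and 0.014) gave 3610 called genes against 3628 and changed no call of the 8. Vsig4 and Hc had few reads in these libraries, and the data allow no comparison for them.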
